A study of Mus musculus with 22 samples.

Results

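The diet comparison in male mice of the wild type genotype set livers from a high-fat, high-sucrose diet (HFHS) against livers from regular chow. It rested on 8 of the 22 arrays of the series and on 7 of its 20 mice, chosen by the labels for sex, genotype and diet. The HFHS group held 3 animals (HFHS 1, 2 and 3) and the chow group 4 animals (chow 1 to 4), all C57BL/6 males carrying both Nat1 and Nat2, the genes of the arylamine N-acetyltransferases. They were littermates of mice with Nat1 and Nat2 knocked out, and these knockout males on HFHS (3 animals) and on chow (4 animals) were used to compare the size of the diet difference. Mice were housed singly from an age of 12 weeks, and each diet was given for 12 weeks. The feeding protocol can also be read as chow followed by HFHS in the same mice, so that age and diet could differ together. By calories the HFHS diet was 45% fat, 20% protein and 35% carbohydrate, and chow was 13.5% fat, 25.2% protein and 61.3% carbohydrate. The design text counts 4 HFHS males, but the titles name 3 animals, with a second array of HFHS 1.

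Diet and the batch named in the labels overlapped almost fully. HFHS 1, 2 and 3 were on Batch1 arrays and the 4 chow animals on Batch2 arrays, and only HFHS 1 was run in both. Results are therefore given in up to 3 ways. The first is the difference from a limma fit with a batch term, in which the batch shift was carried by the 2 animals of the series with arrays in both batches. The second is the difference with no batch term, from 1 array per animal, which leaves out the Batch2 array of HFHS 1. The third is the difference within Batch2, that is the Batch2 array of HFHS 1 minus the mean of the 4 chow arrays, a value from 1 animal with no test. HFHS 1 and the 4 chow animals enter all 3 ways, so agreement between the ways is not independent support. All values are log2 expression values, and all differences are HFHS minus chow on the log2 scale, so that 1 unit is a doubling.

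The liver makes cholesterol and fatty acids from acetyl-CoA, and both routes are under the control of SREBP transcription factors, whose activity falls when sterols are plentiful. Mouse liver also differs strongly between the sexes. The pulsed release of growth hormone in males maintains a male programme, which includes Cyp4a12a and Hsd3b5, and represses female genes such as Cyp2b9 and Cyp2b13. Fatty acid oxidation in mitochondria, peroxisomes and microsomes, ketone body synthesis and lipoprotein secretion dispose of fat that reaches the liver.

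The arrays matched their labels. Nat2 read 6.42 to 7.16 in the 8 wild type male arrays and 3.50 to 4.07 in the knockout males, and Nat1 read 2.87 to 3.95 against 2.09 to 2.85. Of the hepatocyte markers, 10 of 10 measured ones lay above the table median of 4.57 on all 8 arrays, with list means of 12.16 to 12.26 on the Batch1 HFHS arrays, 12.26 on the Batch2 array of HFHS 1 and 12.21 to 12.32 on chow. The median of an array lay between 4.47 and 4.62 across the series. The 2 arrays of HFHS 1 differed from each other with an SD over tested genes of 0.351. That was as much as pairs of different HFHS animals (0.344 to 0.401) or pairs of chow animals (0.320 to 0.394) differed.

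In the fit with the batch term, 5 of 13871 tested genes passed an adjusted p below 0.05 (limma, Benjamini-Hochberg), which is 0.0360% of them. Cyp2b13 rose (0.00721% of genes were called higher), and Cyp4a12a, Cyp4a12b, Gnl3 and Ccl9 fell (0.0288% called lower). In each of the 5 genes, all 4 HFHS arrays lay outside the range of the 4 chow arrays. Over all tested genes, 4.97% had all HFHS arrays above and 3.62% all HFHS arrays below the chow arrays. At an unadjusted p below 0.05 the fit held 948 genes (6.83%), 461 higher (3.32%) and 487 lower (3.51%). The median difference over all genes was 0.00, and the median SE of a difference was 0.20.

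The largest differences among the called genes were in sex-biased cytochrome P450 genes. Cyp2b13, a female-predominant P450, read 8.32, 8.88 and 7.31 in HFHS 1, 2 and 3 and 8.40 on the second array of HFHS 1. In chow 1 to 4 it read 3.39, 3.404, 4.44 and 3.03. The groups did not overlap, and the lowest HFHS array stood well above the highest chow array. Cyp2b13 rose 17.9-fold (difference 4.16 ± 0.68 SE; limma adjusted p = 0.0144). All 4 chow values lay below the table median of 4.57, so the size of the fold depends on low chow signals. The difference was 4.60 with no batch term and 4.84 within Batch2. In the 3 wild type females on HFHS the gene read 11.18 to 11.54, above every male array.

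Cyp2b9, its female-predominant neighbour in the same P450 cluster, read 11.74, 11.68 and 11.53 in HFHS 1, 2 and 3 and 11.68 on the repeat array. Chow animals 1 to 4 read 9.47, 6.53, 8.55 and 5.58. All HFHS arrays were within a narrow band above the chow arrays, which were spread widely (mean 7.53 ± 1.79 SD, n = 4). The difference was 3.86 ± 1.01 SE and did not pass the test with the batch term (limma adjusted p = 0.282). It was 4.11 with no batch term (adjusted p = 0.0134) and 4.15 within Batch2. The HFHS males were near the level of the wild type females on HFHS, which read 11.58 to 12.11.

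The RefSeq sequences of the 250 bases before the starts of Cyp2b9 (GRCm38.p6 chr7:26173159-26173408, plus strand) and Cyp2b13 (chr7:26061245-26061494, plus strand) are shown because the genes were high together. These sequences were identical at 248 of 250 bases (99.2%), with 2 mismatches and 0 gaps. Capitals mark the bases that differ.
Cyp2b9: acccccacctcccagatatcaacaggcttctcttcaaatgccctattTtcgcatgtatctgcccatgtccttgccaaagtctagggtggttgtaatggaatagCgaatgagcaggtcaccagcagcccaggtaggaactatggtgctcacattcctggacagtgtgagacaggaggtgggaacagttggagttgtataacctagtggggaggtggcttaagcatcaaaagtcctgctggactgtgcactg
Cyp2b13: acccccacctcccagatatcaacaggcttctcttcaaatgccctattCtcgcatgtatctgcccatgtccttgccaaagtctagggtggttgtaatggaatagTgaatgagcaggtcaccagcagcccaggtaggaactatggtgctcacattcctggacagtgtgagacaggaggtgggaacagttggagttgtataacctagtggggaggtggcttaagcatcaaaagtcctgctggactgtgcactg
These bases lie before the gene starts, so their likeness does not describe the transcripts or the probes. Whether transcripts of Cyp2b9 and Cyp2b13, or of Cyp4a12a and Cyp4a12b, hybridise to each other's probes was not tested. How the signal divides within each pair is therefore uncertain.

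Cyp4a12a, a male-specific omega-hydroxylase of fatty acids, read 5.63, 6.73 and 7.80 in HFHS 1, 2 and 3 and 5.25 on the repeat array. In chow 1 to 4 it read 8.82, 9.67, 9.52 and 9.94. The HFHS animals were spread over a wider range than the chow animals, and all lay below them. Cyp4a12a fell 9.08-fold (difference -3.18 ± 0.52 SE; limma adjusted p = 0.0144), with -2.76 when no batch term was used and -4.24 within Batch2. The wild type females on HFHS read 2.57 to 3.50, lower still.

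Its close copy Cyp4a12b read 6.10, 5.07 and 5.99 in HFHS 1, 2 and 3, 5.38 on the repeat array, and 8.32, 8.48, 8.62 and 9.23 in chow 1 to 4. Again every HFHS array was below every chow array. Cyp4a12b fell 8.30-fold (difference -3.05 ± 0.49 SE; limma adjusted p = 0.0144). The difference was -2.94 with no batch term and -3.28 within Batch2.

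Other sex-biased genes stood apart between the groups without passing the test. Hsd3b5, a male-specific steroid-metabolising enzyme picked after its values were seen, read 3.22, 1.94 and 2.75 in HFHS 1, 2 and 3 and 3.82 on the repeat array. The 4 chow animals read 5.02, 8.61, 8.21 and 8.32. No HFHS array reached the chow range, in which chow 1 was far below the other chow animals. Every HFHS value of Hsd3b5 lay below the table median of 4.57. The difference was -3.07 ± 1.16 SE (limma adjusted p = 0.678), against -4.90 with no batch term (adjusted p = 0.00987) and -3.72 within Batch2.

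Egfr, the epidermal growth factor receptor, which is more abundant in male liver and was also picked after its values were seen, read 8.78, 8.76, 9.41 and, on the repeat array, 8.79 on HFHS. On chow it read 9.99, 11.44, 10.84 and 11.32, with no overlap. Its difference was -1.54 ± 0.57 SE (adjusted p = 0.661) and -1.91 with no batch term (adjusted p = 0.0267), and it was -0.62 without HFHS 1. Hao2, a female-predominant hydroxy acid oxidase, read 5.06 to 5.57 on HFHS and 2.68 to 3.93 on chow. Every chow value of Hao2 lay below the table median of 4.57. Its difference was 1.43 ± 0.57 SE (adjusted p = 0.684) and 1.97 with no batch term (adjusted p = 0.0299). Elovl3, a male-biased elongase of very long fatty acids, read 9.28 to 10.00 on HFHS and 10.20 to 10.46 on chow (difference -1.005 ± 0.23 SE; limma adjusted p = 0.164).

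**Figure D1:**
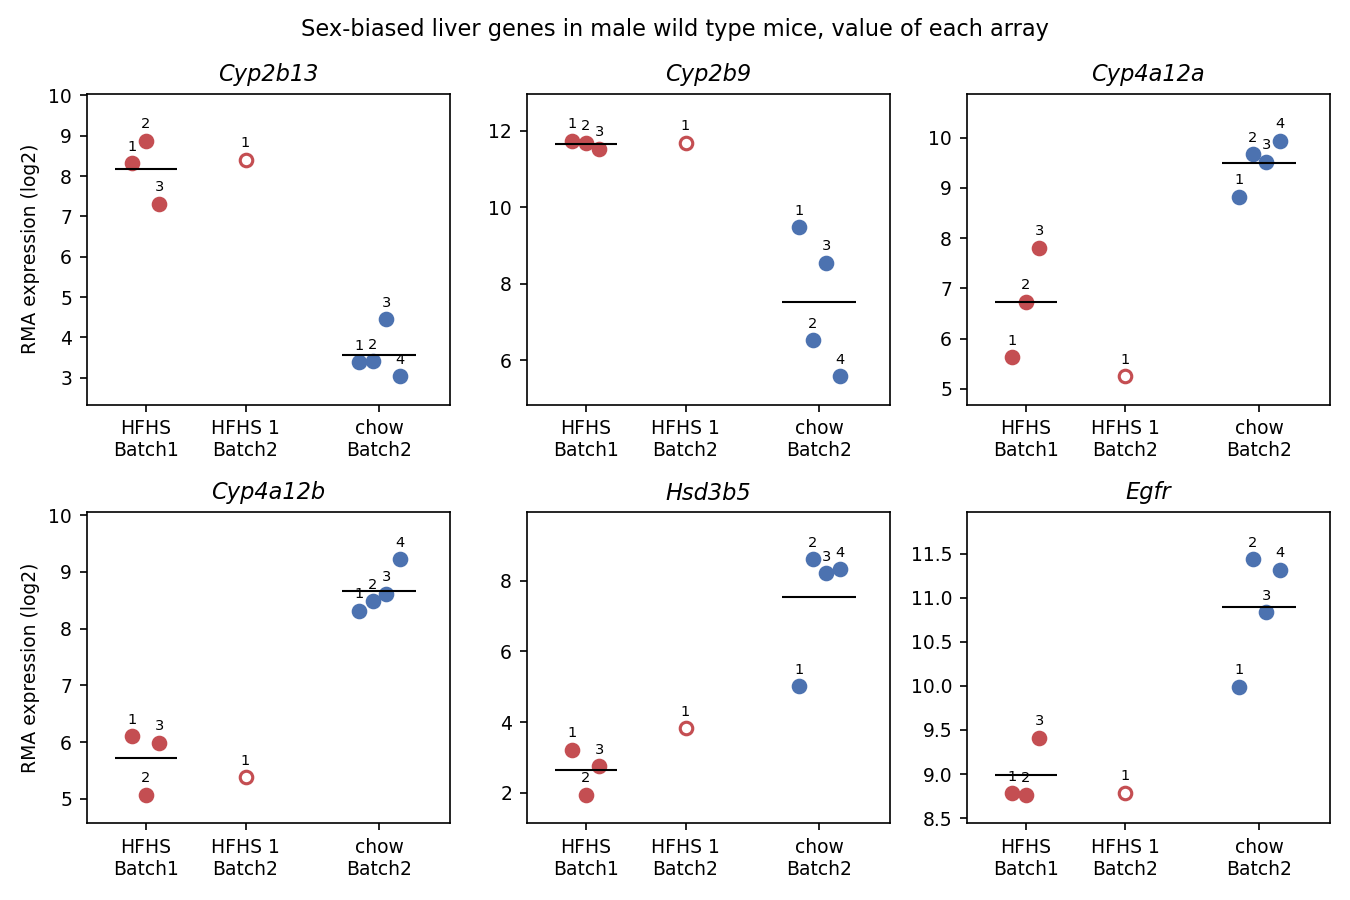
Log2 expression of 6 sex-biased liver genes on each of the 8 arrays, with HFHS animals in red (filled for Batch1, open for the Batch2 array of HFHS 1), chow animals in blue, the animal number beside each point and bars at the mean of the filled points. Cyp2b13 and Cyp2b9 were high and the other 4 genes low on every HFHS array, and chow 1 was the chow animal nearest to the HFHS arrays for Cyp2b9, Cyp4a12a, Cyp4a12b, Hsd3b5 and Egfr.

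Among 21 tested male-biased genes, 2 were called lower (Cyp4a12a and Cyp4a12b) and none higher by limma. The median difference was -0.33, with 17 genes negative and 4 positive, against 0.00 over all tested genes. At an unadjusted p below 0.05, 5 were lower and 2 higher, against 3.51% and 3.32% of all tested genes. Within Batch2, 12 of the 21 lay below all 4 chow arrays, against 21.6% of all tested genes. That count is not independent of the fit, which holds the same animals. The male-biased list had array means of 7.87, 7.44 and 8.03 in HFHS 1, 2 and 3, 7.87 on the repeat array, and 8.29, 8.83, 8.91 and 8.94 in chow 1 to 4. Thus chow 1 also stood nearest to the HFHS animals over the whole list. The list's median was -0.18 without HFHS 1 and -0.54 without knockout HFHS 3. An exception was Cyp2u1, a fatty acid hydroxylase on the male-biased list, at 0.87 ± 0.26 SE (adjusted p = 0.459).

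Among 23 tested female-biased genes, Cyp2b13 was called higher and none was called lower by limma. The median difference was 0.21, with 16 positive and 7 negative, and 3 were higher and 1 lower at an unadjusted p below 0.05 (3.32% and 3.51% of all tested genes). Among the 7 negative members was Cyp3a44, a P450 that read 5.73 to 5.99 on HFHS and 6.39 to 7.29 on chow (difference -1.37 ± 0.27 SE; adjusted p = 0.083). The wild type females on HFHS read 5.91 to 6.06 for Cyp3a44, so they did not lie above the chow males for this gene.

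Both other called genes fell on HFHS by less. Gnl3 (nucleostemin), a nucleolar GTPase of ribosome production, read 7.03, 7.07 and 6.93 in HFHS 1, 2 and 3 and 6.58 on the repeat array. On chow the values were 7.40, 7.96, 7.82 and 7.94, with no overlap. Gnl3 fell 2.22-fold (difference -1.15 ± 0.17 SE; limma adjusted p = 0.0144), with -0.77 when no batch term was used and -1.20 within Batch2.

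Ccl9, a chemokine made mainly by myeloid cells, read 9.06, 9.18 and 8.87 in HFHS 1, 2 and 3 and 8.62 on the repeat array. In the chow animals it read 9.44, 9.53, 9.33 and 9.50. The groups did not overlap, although the Batch1 arrays came close to the lowest chow array. Ccl9 fell 1.94-fold (difference -0.96 ± 0.15 SE; limma adjusted p = 0.0144). With no batch term the difference was -0.41 (adjusted p = 0.0606), and within Batch2 it was -0.82. The batch term of Ccl9 was itself -0.58 (limma adjusted p = 0.0171), and the fitted difference was larger in size than both other values. In whole liver, fewer cells of a type and less RNA per cell cannot be told apart.

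The 5 calls rested on few animals. None of the 5 passed without HFHS 1, the animal in both batches (adjusted p = 0.455 to 0.810 by limma, Cyp4a12a at -1.36), nor without chow 4 (adjusted p = 0.0619 for each). Cyp2b13 also missed the threshold without chow 1 (adjusted p = 0.0558), and Ccl9 without knockout HFHS 3 (adjusted p = 0.207). None passed in the wild type male arrays alone, and with a variance trend and robust moderation only Gnl3 and Ccl9 passed (limma adjusted p = 0.0590 for the other 3 genes).

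Dsg1c, Cdh18, Uncx and Tm7sf2, like Cyp3a44, lay just outside the threshold with groups that did not overlap. Dsg1c, a desmosomal cadherin, read 6.69 to 7.04 on HFHS and 5.09 to 5.45 on chow (difference 1.81 ± 0.34 SE; limma adjusted p = 0.0611). Cdh18, another cadherin, read 6.14 to 6.47 on HFHS and 3.98 to 4.79 on chow (1.54 ± 0.31 SE; adjusted p = 0.083). The homeobox gene Uncx read 5.15 to 5.70 on HFHS and 4.65 to 4.95 on chow (0.86 ± 0.16 SE; adjusted p = 0.0611). Tm7sf2, a sterol reductase, is described with the other genes of cholesterol synthesis.

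Genes of cholesterol synthesis lay lower on HFHS. Of 20 tested members none was called by limma with the batch term, but 17 were negative and 3 positive, and the median difference was -0.59 against 0.00 over all tested genes. At an unadjusted p below 0.05, 11 were lower and none higher, against 3.51% and 3.32% of all tested genes. As for every list here, the members were chosen with earlier results of these data known, so these counts are not independent support. The median was -0.54 with no batch term and -0.51 within Batch2, where 15 of the 20 lay below all 4 chow arrays, against 21.6% of all tested genes. Those values share animals with the fit and are not independent of it. With 1 animal left out the median with the batch term stayed between -0.66 and -0.49. Without the batch term 4 of the 20 passed the test as lower, against 1.01% of all tested genes.

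Tm7sf2 read 7.95, 7.88 and 8.08 in HFHS 1, 2 and 3 and 8.08 on the repeat array. Chow 1 to 4 read 8.93, 9.06, 8.72 and 8.87. Each group was tight and they did not overlap. The difference was -0.95 ± 0.19 SE (limma adjusted p = 0.083), and -0.92 with no batch term (adjusted p = 0.00368).

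Stard4, a carrier of cholesterol between membranes, read 6.52 to 7.11 on HFHS and 7.65 to 7.81 on chow (difference -0.69 ± 0.20 SE; limma adjusted p = 0.45). Cyp51, the lanosterol demethylase, read 7.43 to 8.35 on HFHS and 8.84 to 9.49 on chow (-1.31 ± 0.46 SE; adjusted p = 0.6). Pmvk, the phosphomevalonate kinase, read 6.73 to 7.47 on HFHS and 7.40 to 8.12 on chow (-1.07 ± 0.33 SE; adjusted p = 0.474). Stard4 and Cyp51 did not overlap between the groups, while for Pmvk HFHS 2 reached into the chow range.

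Squalene epoxidase, Sqle, had the largest difference of the list, -1.60 ± 0.77 SE (adjusted p = 0.731), and was named after its values were seen. It read 5.70, 6.30, 4.73 and, on the repeat array, 5.92 on HFHS and 7.28, 8.53, 6.70 and 7.51 on chow. The groups did not overlap, but each was spread widely. Srebf2, which encodes the SREBP of the sterol pathway, was also named after its values were seen. It differed by 0.08 with the batch term and by -0.25 with no batch term.

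Genes of de novo lipogenesis also lay mostly below 0. Of 23 tested members none was called by limma with the batch term, 18 were negative and 5 positive, and the median was -0.29. At an unadjusted p below 0.05, 8 were lower and 1 higher, against 3.51% and 3.32% of all tested genes. Without the batch term 6 were called lower, against 1.01%. The median moved to -0.64 without HFHS 1 and to -0.14 without knockout HFHS 3, the other animal in both batches. Within Batch2 it was -0.12, with 9 members below and 5 above all chow arrays, against 21.6% and 22.9% of all tested genes. Those values, too, share animals with the fit.

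Acss2, which makes acetyl-CoA from acetate, read 7.91, 7.86 and 8.22 in HFHS 1, 2 and 3 and 8.10 on the repeat array. Chow animals 1 to 4 read 9.41, 9.24, 9.04 and 8.92. No HFHS array reached the chow range. The difference was -1.196 ± 0.26 SE (limma adjusted p = 0.127), -1.15 with no batch term (adjusted p = 0.00756) and -1.05 within Batch2.

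Acacb, the mitochondrial acetyl-CoA carboxylase whose product malonyl-CoA restrains fatty acid import, read 6.30, 6.79, 6.86 and, on the repeat array, 6.31 on HFHS. On chow it read 7.54, 7.54, 7.35 and 7.23, again with no overlap. The difference was -1.05 ± 0.23 SE (adjusted p = 0.127) and -0.76 with no batch term (adjusted p = 0.0365). Rdh11, a retinal reductase placed with the SREBP targets, read 6.27 to 7.54 on HFHS and 7.87 to 8.48 on chow (-1.14 ± 0.36 SE; adjusted p = 0.534). Elovl6, which elongates palmitate, read 9.61 to 10.22 on HFHS and 10.42 to 10.56 on chow (-0.98 ± 0.31 SE; adjusted p = 0.534).

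Fatty acid synthase, Fasn, did not separate the groups, at 8.16 to 9.40 on HFHS and 8.94 to 9.78 on chow (-0.49 ± 0.40 SE; adjusted p = 0.882). Srebf1, which encodes the SREBP of fatty acid synthesis, lay in the opposite direction from most of the list, at 0.61 ± 0.28 SE (adjusted p = 0.716), with HFHS arrays at 7.03 to 7.76 and chow arrays at 6.63 to 7.37. Both were named after their values were seen.

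**Figure D2:**
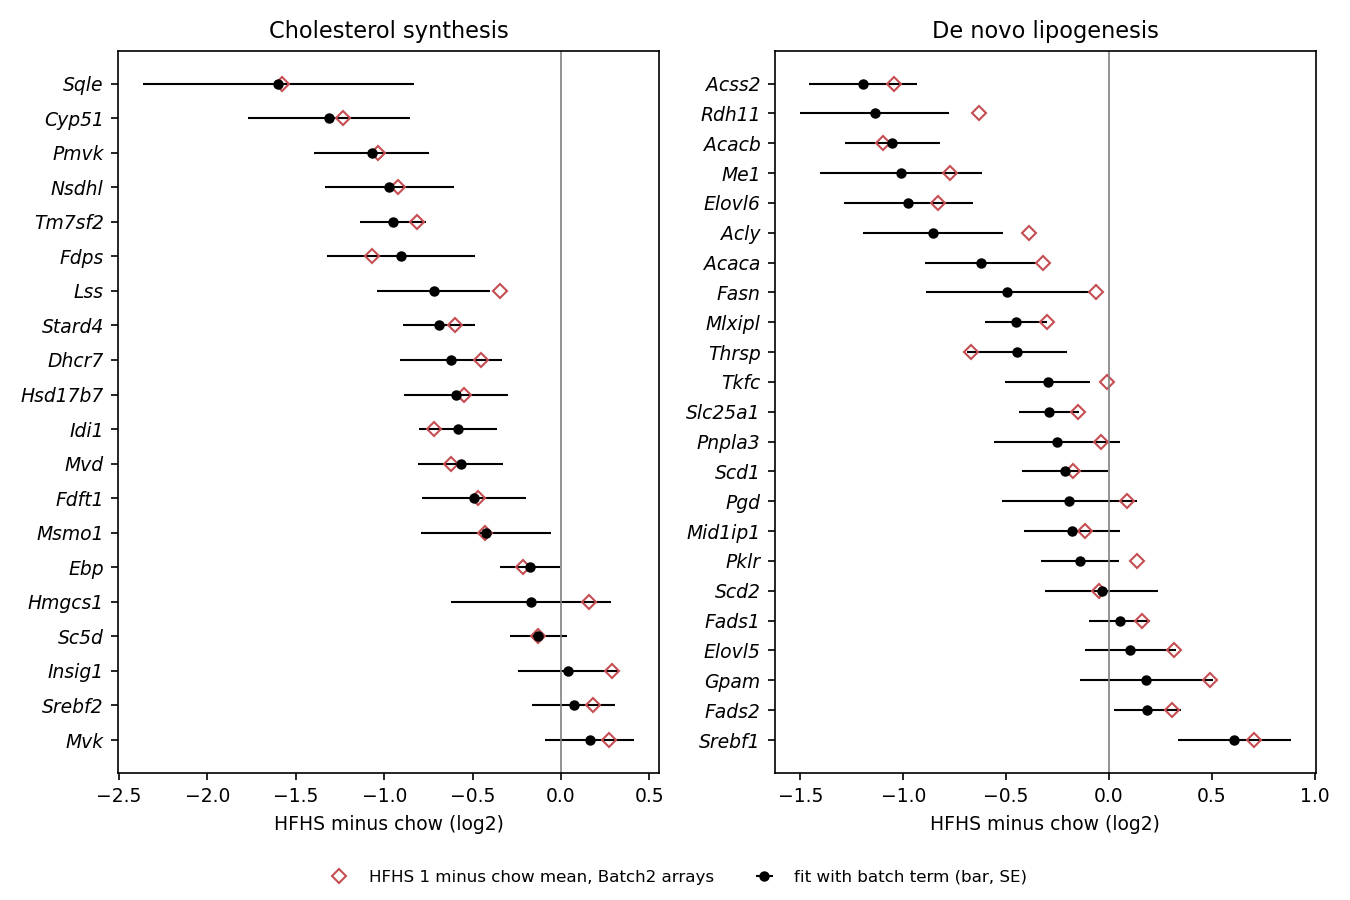
Difference between HFHS and chow (log2) of the 20 tested cholesterol synthesis genes and the 23 tested lipogenesis genes, with the fit with a batch term as black points (bars, SE) and the difference within Batch2 as red diamonds. In cholesterol synthesis 17 of 20 black points lie below 0 and the diamonds lie close to them, while in lipogenesis several diamonds, such as that of Fasn, lie nearer to 0 than the fitted difference.

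The CCAAT box, bound by NF-Y beside SREBP sites in many sterol genes, was searched as CCAAT on either strand in the RefSeq windows of 250 bases before gene starts (GRCm38.p6). It was present in 16 of the 16 tested cholesterol synthesis genes with a window and in 15 of the 20 lipogenesis genes with one. Of all tested genes with a window, 4162 of 10601 (39.3%) held it. The windows of the 3 lipid synthesis genes nearest to the threshold are shown, with the motif in capitals. Its first base lies 47 bases before the start in Tm7sf2 (chr19:6067851-6068100, minus strand), 73 in Acss2 (chr2:155517793-155518042, plus strand) and 87 in Acacb (chr5:114165268-114165517, plus strand).
Tm7sf2: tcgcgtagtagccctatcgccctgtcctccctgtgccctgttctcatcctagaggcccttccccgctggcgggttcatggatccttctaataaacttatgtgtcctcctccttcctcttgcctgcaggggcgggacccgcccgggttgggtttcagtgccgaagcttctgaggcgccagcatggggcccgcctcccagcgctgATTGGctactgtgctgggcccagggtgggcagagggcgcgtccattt
Acss2: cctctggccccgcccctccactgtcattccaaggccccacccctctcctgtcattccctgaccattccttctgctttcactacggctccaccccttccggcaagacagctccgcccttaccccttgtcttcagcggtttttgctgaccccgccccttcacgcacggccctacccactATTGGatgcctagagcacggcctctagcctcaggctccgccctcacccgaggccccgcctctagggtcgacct
Acacb: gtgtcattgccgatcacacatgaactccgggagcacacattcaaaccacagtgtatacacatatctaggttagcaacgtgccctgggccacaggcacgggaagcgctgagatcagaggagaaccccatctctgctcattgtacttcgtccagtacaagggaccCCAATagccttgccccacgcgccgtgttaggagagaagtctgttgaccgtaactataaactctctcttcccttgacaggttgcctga
In these windows the match is a description of the sequence only.

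Fatty acid oxidation in mitochondria showed no common shift with the batch term. Of 20 tested genes none was called by limma, 11 were positive and 9 negative, and the median was 0.01. Only 1 was higher at an unadjusted p below 0.05, against 3.32% of all tested genes. That gene was Ppargc1a, a coactivator of mitochondrial genes, which read 7.72, 7.82, 7.50 and, on the repeat array, 7.38 on HFHS and 7.21, 6.67, 6.62 and 7.02 on chow. Its groups did not overlap. The difference was 0.45 ± 0.21 SE (adjusted p = 0.717) and 0.80 with no batch term (adjusted p = 0.0198). Cpt1a, which brings long-chain fatty acids into mitochondria, read 10.04 to 10.27 on HFHS and 9.81 to 10.13 on chow (0.24 ± 0.15 SE; adjusted p = 0.808). With no batch term the list median was 0.15, with 16 positive and 4 negative, and 2 were called higher, against 2.45% of all tested genes. Within Batch2 the median was 0.08. The list mean was 9.55, 9.58 and 9.65 in HFHS 1, 2 and 3 and 9.49 on the repeat array. On chow it was 9.36 to 9.45, with no overlap.

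Among 19 tested genes of peroxisomal and microsomal oxidation the median was -0.02, and Cyp4a12a was the 1 called gene. Of the 6 genes on the ketone body list only 4 were measured, and they split into 2 positive and 2 negative. Acat1 and Bdh1 were higher at an unadjusted p below 0.05, against 3.32% of all tested genes. Slc16a1 read 7.20 to 7.88 on HFHS and 7.95 to 8.45 on chow, with no overlap (-0.62 ± 0.30 SE; limma adjusted p = 0.731). Fgf21 differed by -0.11 ± 0.39 SE. Acat1, the mitochondrial acetoacetyl-CoA thiolase, read 11.55 to 11.67 on HFHS and 11.02 to 11.28 on chow, with no overlap (0.30 ± 0.13 SE; limma adjusted p = 0.708, and 0.0164 with no batch term). Bdh1, which makes hydroxybutyrate, read 9.04 to 9.40 on HFHS and 8.50 to 8.95 on chow (0.43 ± 0.18 SE; adjusted p = 0.708).

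Genes of oxidative phosphorylation had higher list means on the Batch1 arrays than on the Batch2 arrays. The mean over the measured members was 8.28, 8.34 and 8.41 in HFHS 1, 2 and 3 on Batch1, and 8.11, 7.94, 8.05 and 7.97 in chow 1 to 4 on Batch2. On those arrays the groups did not overlap. The Batch2 array of HFHS 1 read 7.98, within the chow range and well below that animal's own Batch1 array. Over all tested genes the SD of that array's deviations from its group mean was 0.322, against 0.190 to 0.233 on the other arrays. Its group mean was taken without it, while each other array was part of its own mean, which lowers the SD. These SDs are therefore not comparable. Set against single chow arrays, the Batch2 array of HFHS 1 differed with an SD of 0.377 to 0.396. What part batch, diet and that 1 array had in the values was not tested. With no batch term the median over 43 tested genes was 0.33 and 13 were called higher, against 2.45% of all tested genes. With the batch term the median was -0.06, 14 were positive and 29 negative, and limma called none, with none at an unadjusted p below 0.05 either. Within Batch2 the median was -0.04.

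Ndufb10, a complex I subunit named after its values were seen, had the same pattern. It read 8.55, 8.45 and 9.08 in HFHS 1, 2 and 3 and 7.70, 7.70, 7.84 and 7.75 in chow 1 to 4, but 7.87 on the Batch2 array of HFHS 1. With no batch term the difference was 0.94 (limma adjusted p = 0.00166), and with it 0.09 ± 0.17 SE (adjusted p = 0.965). The batch term of Ndufb10 was itself -0.87 (adjusted p = 0.00305). Ndufa5, another complex I subunit, had 0.47 with no batch term and -0.33 ± 0.18 SE with it, both short of the threshold.

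**Figure D3:**
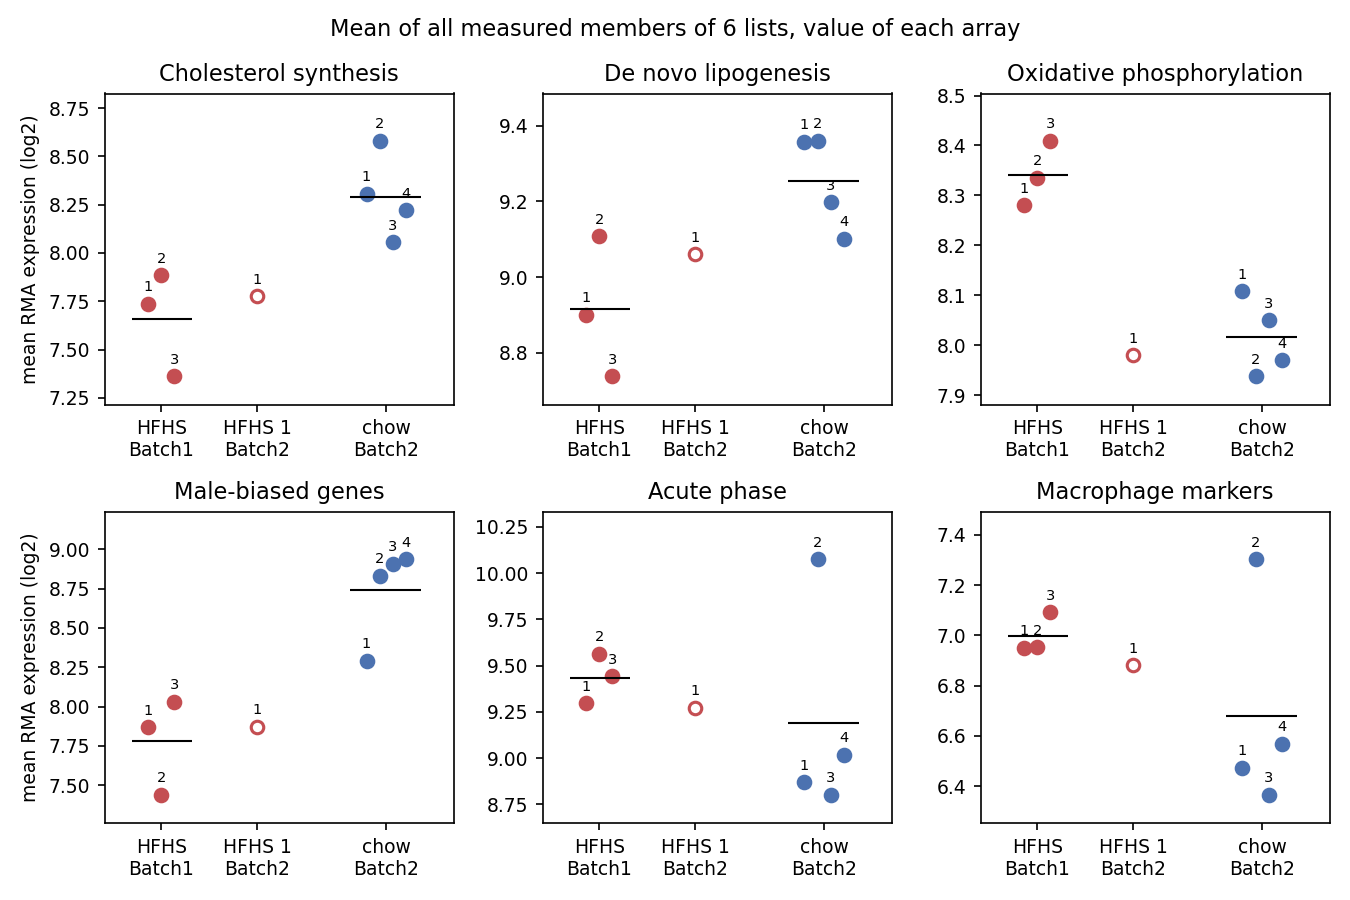
Mean log2 expression over all measured members of 6 gene lists on each of the 8 arrays, with symbols and animal numbers as in the plot of sex-biased genes. The Batch2 array of HFHS 1 lies with the other HFHS arrays for cholesterol synthesis and male-biased genes but with the chow arrays for oxidative phosphorylation, and chow 2 stands apart for the acute phase (10.08) and the macrophage markers (7.30).

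Over all genes the fit with no batch term called 480 of 13871 (3.46%), 340 higher (2.45%) and 140 lower (1.01%). With the 2 arrays of a repeated animal averaged in place of the Batch1 array alone, also with no batch term, 93 were called, 60 higher and 33 lower. Of the 5 genes called with the batch term, 4 were among them, Ccl9 being the exception. The Batch2 array of HFHS 1 lay above all chow arrays for 160 of the 340 higher genes (47.1%, against 22.9% of all tested genes). It lay below them for 95 of the 140 lower genes (67.9%, against 21.6%). Those shares are not independent of the calls, since HFHS 1 was also 1 of the 3 animals in the fit. For 69 of the 340 higher genes and 7 of the 140 lower genes the difference had the opposite sign once the batch term was used. The batch term itself was called for 212 genes (1.53%), 32 higher and 180 lower in Batch2, and 102 of the 340 were also called lower in Batch2. Leaving out HFHS 2 took the 480 calls to 73, leaving out chow 4 to 210, HFHS 1 to 214 and chow 3 to 215.

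Single genes of lipid transport separated the arrays, while the medians of their lists lay near 0. Apoa4, an apolipoprotein of triglyceride-rich particles, read 12.32, 12.68 and 11.87 in HFHS 1, 2 and 3 and 12.11 on the repeat array. The chow animals read 11.005, 10.72, 10.31 and 9.92. No chow animal reached the HFHS level. The difference was 1.28 ± 0.43 SE (limma adjusted p = 0.554), 1.80 with no batch term (adjusted p = 0.00949) and 1.62 within Batch2.

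Mttp, which loads triglyceride onto apolipoprotein B, was slightly lower, with 9.70 to 9.88 on HFHS, 10.09 to 10.31 on chow and no overlap (-0.31 ± 0.11 SE; adjusted p = 0.616, and 0.0275 with no batch term). Over 16 tested genes of lipoprotein secretion the median was -0.03. Pltp, the phospholipid transfer protein, read 8.61 to 9.11 on HFHS and 9.28 to 10.33 on chow (-1.10 ± 0.41 SE; limma adjusted p = 0.674). Scarb1, the hepatic receptor for high-density lipoprotein, read 8.91 to 9.49 on HFHS and 8.48 to 8.89 on chow (0.67 ± 0.22 SE; adjusted p = 0.534). With no batch term Scarb1 differed by only 0.23, and its highest value was the Batch2 array of HFHS 1. Over 13 tested genes of cholesterol export the median was 0.05.

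Fatty acid uptake (16 tested genes, median -0.06) and lipid droplet genes (25 tested, median 0.02) had no member called by limma. Each list had 1 member higher and 1 lower at an unadjusted p below 0.05, against 3.32% and 3.51% of all tested genes. Fabp2, an intestinal-type fatty acid binding protein, read 10.30 to 10.58 on HFHS and 9.10 to 10.11 on chow (0.72 ± 0.31 SE; adjusted p = 0.713). Cidea, a lipid droplet fusion protein, varied within each group, from 3.83 to 5.83 on HFHS and from 3.42 to 6.65 on chow (-1.54 ± 0.77 SE; adjusted p = 0.762). Chow 1 and 2 lay above every HFHS array for Cidea, and chow 4 below them all.

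In carbohydrate metabolism, the median was -0.11 over 16 tested genes of glycolysis and fructose use and -0.05 over 17 of gluconeogenesis and glycogen, with none called by limma. The first list had none at an unadjusted p below 0.05. The second had 1 higher and 2 lower, against 3.32% and 3.51% of all tested genes. Ppp1r3c, which targets protein phosphatase 1 to glycogen, read 7.46, 7.17, 7.96 and, on the repeat array, 7.28 on HFHS and 6.49, 6.90, 6.20 and 6.43 on chow, with no overlap. Its difference was 0.87 ± 0.26 SE (adjusted p = 0.459, and 0.0164 with no batch term). G6pc, the glucose-releasing phosphatase, read 10.60 to 10.96 on HFHS and 11.08 to 11.96 on chow (-0.77 ± 0.30 SE; adjusted p = 0.68). Ldha, lactate dehydrogenase, read 9.66 to 10.01 on the Batch1 HFHS arrays and 10.19 to 10.53 on chow, but 10.33 on the Batch2 array of HFHS 1, inside the chow range. Its difference shrank from -0.53 with no batch term (adjusted p = 0.0483) to -0.27 ± 0.19 SE with it (adjusted p = 0.851).

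Among secreted liver factors, Lect2, a hepatokine raised in obesity, read 10.06, 9.83 and 10.03 in HFHS 1, 2 and 3 and 9.83 on the repeat array. In chow 1 to 4 it read 9.04, 8.94, 8.45 and 8.73. Every HFHS array was above every chow array. The difference was 0.89 ± 0.19 SE (limma adjusted p = 0.119), 1.19 with no batch term (adjusted p = 0.000541) and 1.04 within Batch2. Angptl8, an insulin-responsive inhibitor of lipoprotein lipase, read 7.11 to 7.72 on HFHS and 7.19 to 8.23 on chow (-0.64 ± 0.25 SE; adjusted p = 0.68). Over 19 tested hepatokine genes the median was -0.11.

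Of 39 tested P450s and receptors of xenobiotic handling, 28 were positive and 11 negative (median 0.10), and Cyp2b13 was the 1 called gene. In this list 5 were higher and 3 lower at an unadjusted p below 0.05, against 3.32% and 3.51% of all tested genes. Fmo5, a flavin monooxygenase, read 10.70 to 10.96 on HFHS and 10.04 to 10.34 on chow, with no overlap (0.61 ± 0.14 SE; adjusted p = 0.179, and 0.00636 with no batch term). Of 35 tested conjugation enzymes 23 were positive (median 0.09), and none was called by limma. Here 3 were higher and none lower at an unadjusted p below 0.05, against 3.32% and 3.51% of all tested genes. Sult1c2, a sulfotransferase, read 7.01, 7.38, 6.99 and, on the repeat array, 6.91 on HFHS and 6.02, 5.04, 5.80 and 5.47 on chow. It did not overlap (1.202 ± 0.33 SE; adjusted p = 0.348, and 0.00603 with no batch term). Ugt1a1, the bilirubin-conjugating enzyme, had 0.68 ± 0.27 SE (adjusted p = 0.681), but -0.05 with no batch term and overlapping arrays. Nat2, which the study deleted in the knockouts, differed by 0.02 ± 0.19 SE (adjusted p = 0.994).

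In bile acid synthesis and transport the median was 0.13 over 23 tested genes, with none called by limma. There was 1 higher and 1 lower gene at an unadjusted p below 0.05, against 3.32% and 3.51% of all tested genes. Cyp27a1, the mitochondrial sterol hydroxylase of the alternative pathway, was the lower one, with 9.72 to 10.13 on HFHS and 10.26 to 10.47 on chow and no overlap (-0.49 ± 0.19 SE; adjusted p = 0.68).

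Of 27 tested interferon response genes none was called by limma, and 6 were higher and none lower at an unadjusted p below 0.05 (3.32% and 3.51% of all tested genes). The median was only 0.03. Ifit1, an interferon-induced antiviral protein, read 7.00, 6.95, 6.44 and, on the repeat array, 6.96 on HFHS and 5.57, 6.44, 5.58 and 5.95 on chow. Chow 2 equalled the lowest HFHS animal to 2 decimals, and the other chow animals lay lower (1.07 ± 0.32 SE; adjusted p = 0.459). Psmb9, an immunoproteasome subunit of antigen presentation, read 6.75 to 7.19 on HFHS and 5.73 to 6.59 on chow, with no overlap (0.70 ± 0.20 SE; adjusted p = 0.44, and 0.00445 with no batch term).

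Macrophage markers read higher on every HFHS array than in 3 of the 4 chow animals, and chow 2 had the highest mean of all 8 arrays. The list mean was 6.95, 6.95 and 7.09 in HFHS 1, 2 and 3, 6.88 on the repeat array, and 6.47, 7.30, 6.36 and 6.57 in chow 1 to 4. Of 14 tested markers 13 were positive (median 0.31, and 0.55 without chow 2), and none was called by limma. Only 1 marker was higher at an unadjusted p below 0.05, against 3.32% of all tested genes. Cd68, a lysosomal macrophage protein, read 7.82 to 8.54 on HFHS and 6.87 to 7.88 on chow (0.50 ± 0.29 SE; adjusted p = 0.8). The tested markers of lipid-associated macrophages had a median of 0.10 with the batch term and 0.53 with no batch term, over 10 genes. The part of macrophage RNA in the interferon, antigen presentation and Ccl9 values was not tested.

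Acute phase genes did not separate the diets. Their list mean was 9.30, 9.56 and 9.44 in HFHS 1, 2 and 3, 9.27 on the repeat array, and 8.87, 10.08, 8.80 and 9.02 in chow 1 to 4. Chow 2 lay above every HFHS array and the other 3 chow animals below them. Of 28 tested genes 17 were positive (median 0.11), with none called by limma and none at an unadjusted p below 0.05. Saa1, serum amyloid A, named after its values were seen, read 10.43 in chow 2 against 5.79 to 6.19 in the other chow animals and 7.50 to 8.24 on HFHS. Lcn2, lipocalin 2, also named so, read 11.85 in chow 2, 7.43 to 7.96 in the other chow animals and 9.81 to 11.08 on HFHS.

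Among lymphocyte markers, the B cell genes Ighm and Cd79b had the smallest p. Ighm, the heavy chain of immunoglobulin M, read 7.68, 7.89, 6.99 and, on the repeat array, 7.69 on HFHS and 9.55, 9.38, 9.11 and 8.64 on chow. The groups did not overlap, and the difference was -1.73 ± 0.56 SE (limma adjusted p = 0.534). Cd79b, a chain of the B cell receptor, read 4.01 to 4.70 on HFHS and 5.02 to 5.55 on chow (-0.59 ± 0.23 SE; adjusted p = 0.683, and 0.0304 with no batch term). Of the 16 measured lymphocyte markers only 8 passed the filter on low values, and 3 of those were negative and 5 positive.

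Cell cycle genes had a median of 0.26 over 21 tested members, with none called by limma. There was 1 higher and 1 lower at an unadjusted p below 0.05, against 3.32% and 3.51% of all tested genes. Cdkn1a, the cell cycle inhibitor p21, was the higher one. It read 7.63, 8.81 and 8.26 in HFHS 1, 2 and 3 and 7.67 on the repeat array, against 5.87, 6.64, 5.73 and 5.94 in chow 1 to 4, with no overlap. The difference was 1.54 ± 0.46 SE (adjusted p = 0.459), 2.19 with no batch term (adjusted p = 0.00596) and 1.62 within Batch2. Rrm2, a ribonucleotide reductase subunit of dividing cells, lay the other way, with 5.08 to 6.10 on HFHS and 5.54 to 6.23 on chow (-0.64 ± 0.26 SE; adjusted p = 0.686).

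Of 26 tested endoplasmic reticulum stress genes 20 were negative (median -0.12), and none was called by limma. Of the 20, 3 had an unadjusted p below 0.05, against 3.51% of all tested genes that were lower at that level. Xbp1, a transcription factor of the unfolded protein response, read 9.51 to 9.79 on HFHS and 9.97 to 10.31 on chow, with no overlap (-0.55 ± 0.21 SE; adjusted p = 0.68). Extracellular matrix genes had a median of 0.15 over 22 tested members, none of them called by limma and none at an unadjusted p below 0.05. Hspa1a, a heat-inducible chaperone counted with the handling markers, read 5.49 to 6.02 on HFHS and 3.60 to 4.49 on chow (1.53 ± 0.64 SE; adjusted p = 0.707), while the median of the 18 tested handling markers was -0.07.

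**Figure D4:**
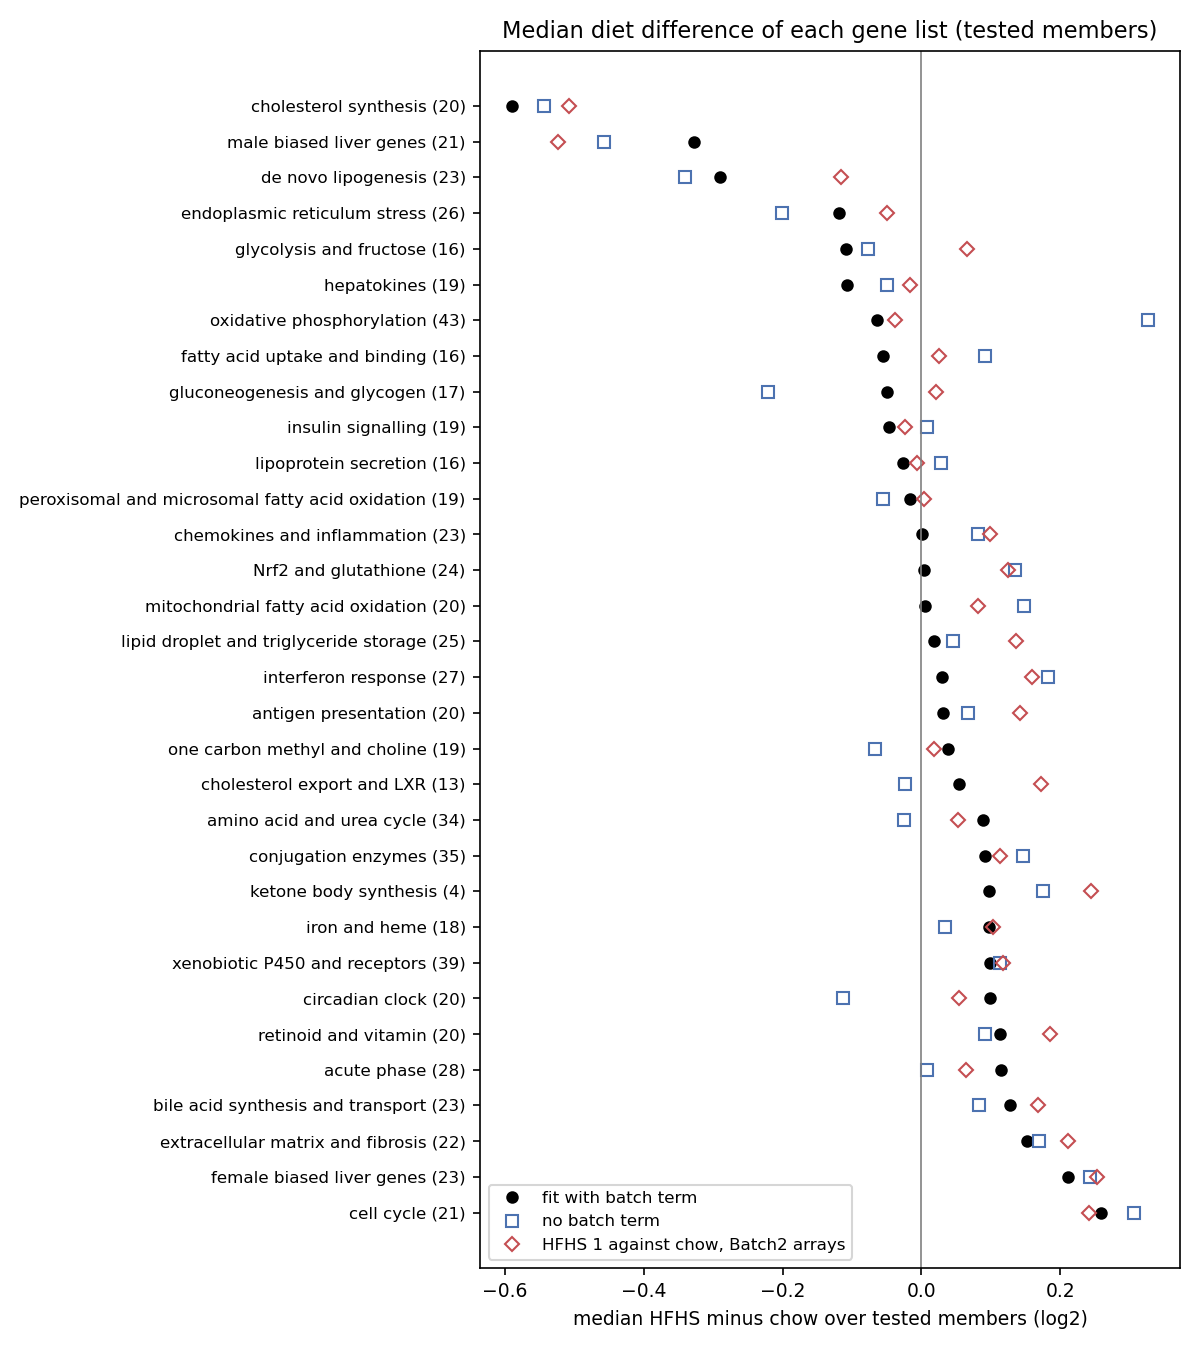
Median difference between HFHS and chow (log2) over the tested members of each of 32 gene lists (number of members in brackets), with the batch term (black), with no batch term (blue squares) and within Batch2 (red diamonds). Cholesterol synthesis (-0.59, -0.54 and -0.51) and male-biased genes (-0.33, -0.46 and -0.52) lie to the left in all 3. The 3 share animals and are not independent. Oxidative phosphorylation lies to the right only with no batch term (0.33 against -0.06 and -0.04).

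The diet difference was set against that of the knockout males by the interaction term of the same fit. No gene was called by limma (0% of 13871), with 619 at an unadjusted p below 0.05, so no difference between the genotypes in the response to diet passed the test. In the knockouts the differences were 2.87 for Cyp2b13, -3.84 for Cyp4a12a, -3.24 for Cyp4a12b, -0.90 for Gnl3 and -0.88 for Ccl9. Each had the direction seen in the wild type, and the interactions were 1.29, 0.65, 0.19, -0.24 and -0.08. The differences of both genotypes share 1 batch term, which was -0.58 for Ccl9 and -0.36 for Gnl3. Their common direction is therefore not independent. Cyp2b9 differed by 5.38 in the knockouts.

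The medians of the lipid synthesis lists also lay apart between the genotypes, a difference that was not tested over the lists. The median over cholesterol synthesis genes was 0.12 in the knockouts against -0.59 in the wild type, and that over lipogenesis genes was 0.04 against -0.29. Sqle had -1.60 in the wild type and 0.77 in the knockouts. The median over acute phase genes was 0.61 in the knockouts and 0.11 in the wild type. With 1 animal left out the wild type median stayed between 0.04 and 0.28. Those refits include the one without chow 2, which was high for this list. Of the 5 genes with the smallest interaction p, Hamp, the iron hormone hepcidin, differed by -0.74 in the wild type and -3.97 in the knockouts (interaction 3.23 ± 0.79 SE). The wild type difference of Hamp was -0.24 with no batch term and -0.22 within Batch2, and ran from -1.56 without HFHS 1 to -0.21 without knockout HFHS 3. The other named ones were Isg20, an interferon-induced exonuclease (interaction -0.99), Tgfbi, a matrix protein (-0.92), and Ung, a uracil-DNA glycosylase (-0.77). All 4 had a limma adjusted p of 0.878.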

How the data were processed

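Liver RNA of 8 arrays (7 wild type males) was compared within the series table, which holds 22 arrays. The values are log2 expression made by the authors with RMA in affy 1.48.0 under R 3.4.3, per the submitters' processing notes, and were used as deposited. Image settings and genome build: not given in the sources used here. Of 25428 Entrez-based probe sets, 24705 carried 1 gene symbol and 723 none, and 24673 were matched to the reference by Entrez number. For 1 symbol on several probe sets the one with the highest mean was kept. A gene was tested if above the median of the table (4.57) on at least 3 arrays, which left 13871. The number of animals limits the precision. The p-values of the fit with the batch term rest on the spread within groups over all 22 arrays. Those arrays include females, knockouts and repeat arrays. The p-values of that fit also carry the error of the batch term. With no batch term the spread was taken over 20 arrays, 1 per animal. Neither set of p-values measures the spread between the 7 wild type males alone.

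The diet contrast was fitted by limma 3.58.1 in R 4.3.3 (with package data.table in version 1.17.8) on all 22 arrays, with 6 group means, a fixed batch term, the animal as a random block (duplicateCorrelation, consensus correlation 0.228), eBayes and Benjamini-Hochberg adjustment over all tested genes. The diet by genotype contrast came from the same fit. The fit with no batch term used 20 arrays, 1 per animal, with the Batch1 array of repeated animals. Tests were two-sided, and the fit was tested on simulated data. Means ± SD are over animals.

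Genes were named by rule: called genes with the largest difference (at most 15 in each direction), with the 5 of smallest p in a direction where fewer than 5 were called; up to 4 members of smallest p per list (up to 6 if called); the 5 of smallest interaction p; and Nat1 and Nat2. Those named otherwise are said to be named or picked after their values were seen. Predicted genes were left unnamed, and not every gene the rule allows is described. The 44 lists (32 pathways, 12 cell types) and all members were chosen with earlier results of these data known. Every list was counted over its tested members and none was put to a set test.

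Replicate numbers did not pair animals across diets: the correlations of deviations from the group means were -0.03, 0.13 and 0.07. The alternatives changed the batch term, technical repeats, samples, animal block, filter (none, or at least 10 arrays), normalisation, variance model, fold threshold (1.2) and replicate block, and left out each animal. Promoter windows are RefSeq sequence. Plots used matplotlib 3.10.9 (Python 3.11.15).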

Additional observations from a re-analysis of the deposited data

Results flagged for a closer look

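Of 129 values checked (85 genes and the means of 44 lists), 8 had 1 of the 4 chow animals standing apart, with a gap to the nearest other animal that took up more of the group's range than Dixon's 95% critical value allows. Chance marks about 1 in 20 groups taken without regard to their values. That rate does not hold for Hsd3b5, Saa1 and Lcn2, which were named after their values were seen. It need not hold for the other genes either, since most were named by their p in these data. Hsd3b5, Saa1 and Lcn2 also belong to the male-biased and acute phase lists given here, so the flags are not independent. Chow 1 read 5.02 for Hsd3b5, the male-specific steroid enzyme, against 8.21 to 8.61 in the other chow animals. Chow 1 also had a mean of 8.29 over the male-biased list, against 8.83 to 8.94. Chow 2 read 10.43 for Saa1 (others 5.79 to 6.19), 11.85 for Lcn2 (others 7.43 to 7.96) and 7.56 for the macrophage gene Cd5l (others 6.39 to 6.51). Chow 2 had means of 10.08 over the acute phase list (others 8.80 to 9.02) and 5.59 over the extracellular matrix list (others 5.40 to 5.41). Chow 4 read 6.42 for Nat2, against 6.79 to 6.85.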

How the results depend on the processing

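The count of genes called by limma for diet was 5 (1 higher, 4 lower) and moved with the handling of batch and of the repeated arrays. It was 480 (340 higher, 140 lower) with no batch term and the Batch2 arrays of repeated animals left out, and 93 (60 and 33) with no batch term and repeats averaged. It was 2 (1 and 1) in Batch2 arrays alone, where each male HFHS group is 1 animal assumed to vary like the other groups, so that the count supports nothing, and 0 (0 and 0) in the wild type male arrays alone. It was 8 (4 and 4) with the stricter filter, 6 (2 and 4) after a further quantile normalisation, 2 (0 and 2) with a variance trend and robust moderation, 3 (1 and 2) against a 1.2-fold change, and 5 with no filter or no animal block. With the replicate block it was 7 (2 and 5), although the numbers did not pair the animals. Leaving out 1 animal gave 0 (without HFHS 1 and without chow 4) to 8 (without chow 2), 0 to 4 higher and 0 to 5 lower. Without knockout HFHS 3, the other animal in both batches, an alternative chosen after seeing the data, 4 remained called and Ccl9 had an adjusted p of 0.207. With no batch term, leaving out 1 animal (also chosen after seeing the data) gave 73 to 447 genes, 53 to 286 higher and 20 to 161 lower. The diet by genotype contrast had 0 calls, 0 to 3 with 1 animal left out, and 1 in Batch2 arrays alone, again from 1 HFHS animal of each genotype. Signs were followed through the alternatives for a chosen set of genes only. Genes outside it turned as well, such as G0s2 (-0.46 with the batch term and 0.25 with none). Within the set the sign turned with no batch term for Ugt1a1 (-0.050), Fitm1 (0.084), Ndufa5 (0.47), Ndufb8 (0.27) and Srebf2 (-0.25). With repeats averaged it turned for Fitm1 (0.023), Ndufa5 (0.36), Ndufb8 (0.20) and Srebf2 (-0.19). With 1 animal left out, Gss ranged from -0.055 (without HFHS 1) to 0.708 and Srebf2 from -0.112 (without HFHS 1, and -0.110 without chow 1) to 0.184. The causes were not tested. Of 836 list medians under an alternative, 754 moved by less than 1 SD between animals and 82 did not. That SD is the spread of the list mean within the groups, not the error of the median difference. The median of oxidative phosphorylation went from -0.06 to 0.33 with no batch term, against an SD of 0.07.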
